A study of Mus musculus with 6 samples.

Results

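The lysosomal genes described here encode hydrolases, activator proteins, membrane proteins and proton pump subunits of the degradative compartment of the cell. The list also holds Tfeb, a transcription factor that drives lysosomal genes. All genes were listed by symbol, and each was read from its brightest probe set (highest mean over the 6 arrays) among those annotated to exactly 1 gene. Of 37 listed genes 36 were measured, by 82 probe sets, out of 18193 genes measured in all; Cd63 was not analysed here. The arrays measured RNA of eGFP-positive cells that were sorted out of mouse somatosensory cortex grey matter. The 3 reactive samples came from TgN(hGFAP-EGFP) GFEA mice, which express eGFP under a human GFAP promoter, and were collected on day 5 after stabbing the cortex to a depth of 0.7 mm. The 3 non-reactive samples came from the same region of uninjured Tg(Aldh1l1-eGFP)OFC789Gsat mice, whose eGFP is expressed from an Aldh1l1 transgene. All mice were FVB/N animals aged 2 to 3 months, of undetermined sex, and each sample pooled the cells of about 15 animals. The labels describe BrdU labelling for the study and do not say whether these animals had it. Injury and reporter line went together in every sample, so their parts in a difference cannot be told apart.

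Lysosomes receive material from endocytosis, phagocytosis and autophagy and break it down at acid pH, and the products leave through transporters in the limiting membrane. Inherited loss of many of these enzymes causes lysosomal storage disease, often with neurodegeneration. In the brain the lysosomal system is prominent in microglia and macrophages, which clear debris after injury, and astrocytes also use it. Values below are the deposited log2 expression values, so that a difference of 1 is a 2-fold change. Differences are reactive minus non-reactive, and a gene is said to rise or fall only where limma gave an adjusted p below 0.05 over all probe sets.

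The cells were checked against marker genes before the lysosomal genes were read. Astrocyte markers were well expressed in both groups, and all 14 lay above 4.74, the median mean level over probe sets, on each array. Their summed linear level was 25411 to 26834 in reactive arrays, against 47012 to 60094 in non-reactive arrays, and 12 of 14 were lower in reactive arrays without overlap. Of the 14, 5 fell and 1 rose: Gfap, named after its values were seen, rose by 3.12 without overlap. The 22 measured microglia and macrophage markers summed to 25493 to 36275 in reactive arrays, against 8777 to 9447 in non-reactive arrays; 6 of them rose and all 22 had a higher mean. Of the 3 with the highest mean, Tyrobp rose by 2.59, Ctss differed by 1.52 (limma adjusted p = 0.065) and Csf1r by 0.42, and 3 of the 22 had a mean below 4.74. The 15 measured blood leukocyte markers summed to 7693 to 15904 in reactive arrays, against 455 to 767 in non-reactive arrays, and 4 of them rose. The 3 with the highest mean, Lyz1, Cd52 and Lyz2, rose by 5.85, 3.52 and 5.67. Over the 15 the median difference was only 0.24, the groups overlapped for 10, and 6 had a mean below 4.74. The 13 measured oligodendrocyte markers summed to 25484 to 27321 in reactive arrays, against 20387 to 26246 in non-reactive arrays. Of these 13, 12 had a higher mean and 8 lay above 1, with a median difference of 1.36, and 1 rose (unadjusted, 8 higher and 1 lower). The 12 neuronal markers summed to 9703 to 17836 in reactive arrays, against 15127 to 19814 in non-reactive arrays, and 0 passed (unadjusted, 1 higher and 0 lower). The 12 measured endothelial and mural markers summed to 384 to 1586 in reactive arrays, against 633 to 1219 in non-reactive arrays, and 0 passed (unadjusted, 0 higher and 2 lower). Most markers of microglia and macrophages, oligodendrocytes and neurons thus lay above 4.74 on each array. Of the 15 blood leukocyte markers, 7 to 9 lay below 4.74 in non-reactive arrays and 3 to 6 in reactive arrays. Of the 12 endothelial and mural markers, 6 to 7 lay below it in non-reactive arrays and 4 to 7 in reactive arrays. Values of all probe sets correlated at 0.901 to 0.921 among the reactive arrays, 0.95 to 0.963 among the non-reactive arrays and 0.889 to 0.930 between the groups. In sorted bulk samples, fewer cells of a type and less RNA per cell cannot be told apart, and the part of these other cells in each lysosomal result was not tested. The 3′ minus 5′ signal of the Gapdh, Actb and Pcx control probe sets was 4.17, 3.38 and 1.44 in reactive arrays, against 5.19, 5.05 and 3.46 in non-reactive arrays; its part was not tested either.

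Many lysosomal genes carry the CLEAR element in their promoters, an E-box variant bound by the transcription factor TFEB. RefSeq promoter windows (GRCm38.p6, 250 bases before to 50 bases after the gene start) were matched for 33 of the 36 genes. The core letters CACGTG, which read the same on both strands, stood in 10 of the 33 genes (30.3%), against 8.09% of 27025 genes with a window. The longer form TCACGTGA, which contains the core, stood in 4 of 33 (12.1%), against 1.12% of all genes. The 5 stretches below are shown because they hold the core. They belong to the gene with the most copies (Lamp1) and to those with the highest and lowest differences among genes with a copy (Naglu and Arsa). Also shown is a pair of membrane proteins whose brightest probe sets differed in opposite directions, neither past the threshold (Cln3 and Mcoln1). Each stretch is 80 bases, read 5′ to 3′ on the gene's strand before the start, with CACGTG in capitals.
Lamp1, chr8:13159081-13159160, plus strand: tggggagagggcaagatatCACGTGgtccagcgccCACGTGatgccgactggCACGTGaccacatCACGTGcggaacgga
Naglu, chr11:101070014-101070093, plus strand: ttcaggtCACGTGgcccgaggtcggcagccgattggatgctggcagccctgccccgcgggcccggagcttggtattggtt
Cln3, chr7:126583306-126583385, minus strand: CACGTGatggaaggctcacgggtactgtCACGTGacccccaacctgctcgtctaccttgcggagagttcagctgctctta
Mcoln1, chr8:3500439-3500518, plus strand: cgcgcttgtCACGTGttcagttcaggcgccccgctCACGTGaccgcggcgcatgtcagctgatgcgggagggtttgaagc
Arsa, chr15:89477425-89477504, minus strand: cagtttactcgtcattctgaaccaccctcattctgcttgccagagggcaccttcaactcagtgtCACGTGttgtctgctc

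The 10 genes with the core differed between the groups by -0.81 to 1.42, with a median of 0.23, and 7 had a higher mean in the reactive arrays. The 23 genes with a window but without these letters differed by -1.52 to 4.12, with a median of 0.21. Lamp1, with 4 copies in the stretch shown, differed by 0.05. A match is a string of letters and says nothing of whether TFEB bound there.

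Across the lysosomal genes the differences lay on both sides of 0. Of 36 genes 1 rose (2.78%) and 0 fell, whereas 0.951% of all genes passed in either direction, 0.39% upwards and 0.561% downwards. At the brightest probe sets no gene of the series passed when any 1 non-reactive array was left out (1909 to 2127 at an unadjusted p below 0.05) or when the fit was blocked on replicate number (2401). At an unadjusted p below 0.05, 9 were higher (25%, against 7.88% of all genes) and 3 lower (8.33%, against 7.13%). With 1 array left out, 4 to 8 were higher, the fewest being 4 without non-reactive replicate 3, next to 5 without reactive replicate 3, and with the mean of each gene's probe sets 11 were higher and 0 lower. The median difference was 0.19, against 0.12 over all genes, and 21 of 36 (58.3%) had a higher mean in the reactive arrays, against 60.7% of all genes. A larger group stood at the high end: 12 of 36 (33.3%) lay above 1, against 5.65% of all genes, and 3 lay below -1 (8.33%), against 6.61%. With the mean of each gene's probe sets in place of the brightest, 6 lay above 1, against 3.85% of all genes. The groups did not overlap for 7 genes that were higher (19.4%, against 13.5% of all genes) and for 5 that were lower (13.9%, against 8.2%). Without Cd68, Laptm5 and Gpnmb, which mark phagocytes, 9 of 33 lay above 1 and the median was 0.06.

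**Figure D1:**
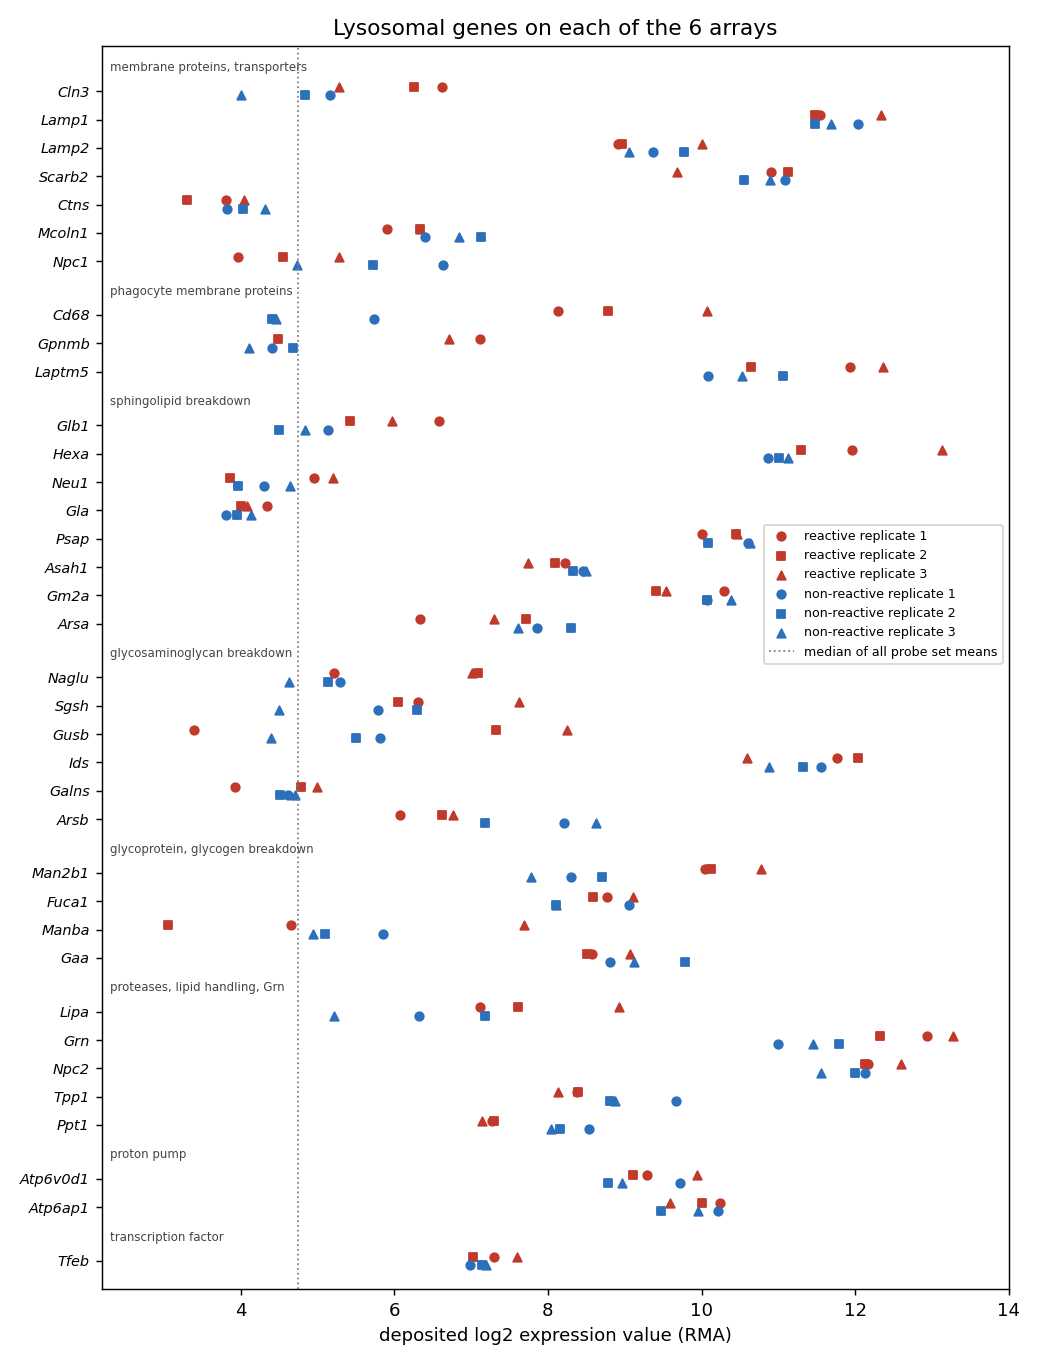
Deposited log2 value (horizontal axis) of each of the 36 lysosomal genes on the 3 reactive (red) and 3 non-reactive (blue) arrays, grouped by role; the marker shape gives the replicate number and the dotted line the median level of 4.74. Cd68 stands apart with 8.13 to 10.06 in reactive arrays, against 4.41 to 5.74 in non-reactive arrays. Arsb and Ppt1 lie to the other side without passing, and another Ppt1 probe set, not drawn, differed by 1.15.

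Of the 3 lysosomal membrane proteins known from phagocytes only Cd68 rose and 0 fell, against 0.39% and 0.561% of all genes. The median difference of the 3 was 1.71. Cd68, a heavily glycosylated late endosomal protein of macrophages, measured 8.13, 8.78 and 10.06 in reactive arrays, against 5.74, 4.41 and 4.46 in non-reactive arrays. All reactive arrays were above all non-reactive ones, and reactive replicate 3 was the highest. Cd68 rose 17.4-fold, with a log2 difference of 4.12 (SE 0.58, 95% interval 2.74 to 5.50, limma adjusted p = 0.0424), the eighth place from the top among 18193 genes. Its non-reactive mean of 4.87 was near 4.74, the median level defined above, which leaves the fold uncertain. The call was lost when any 1 array was left out, with an adjusted p of 0.0574 to 0.154, and in a fit blocked on replicate number (0.145), while the difference stayed between 3.58 and 4.55. The summed markers of microglia and macrophages, oligodendrocytes, blood leukocytes and endothelial and mural cells were also highest in reactive replicate 3. Those of astrocytes and neurons were not, and the part of any of these markers in the Cd68 result was not tested.

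Gpnmb, a transmembrane glycoprotein of lipid-laden macrophages, measured 7.12, 4.49 and 6.72 in reactive arrays, against 4.41, 4.68 and 4.11 in non-reactive arrays. Reactive replicate 2 lay among the non-reactive values, and the difference of 1.71 (SE 0.67) did not pass (limma adjusted p = 0.35). Without that array the difference was 2.52 with an adjusted p of 0.0447, the only setting in which Gpnmb passed (adjusted p 0.0447 to 0.605 over 16 alternatives). Laptm5, a lysosomal protein of haematopoietic cells, measured 11.93, 10.65 and 12.36 in reactive arrays, against 10.08, 11.06 and 10.53 in non-reactive arrays. Here too reactive replicate 2 overlapped the non-reactive arrays, and the difference was 1.09 (SE 0.49, adjusted p = 0.406). All 5 probe sets of Laptm5 were higher on average, by 0.51 to 1.09, and 4 of them had means above 4.74.

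The 7 general membrane proteins of the lysosome had a median difference of -0.27, with 0 called. Lamp1, a major glycoprotein of the lysosomal membrane, measured 11.54, 11.47 and 12.34 in reactive arrays, against 12.04, 11.47 and 11.69 in non-reactive arrays. The groups overlapped, and the difference of 0.05 had a 95% interval of -0.67 to 0.78. Its relative Lamp2, which also takes part in autophagy, differed by -0.10 (interval -0.97 to 0.76) at the brightest probe set. At the other 3 it differed by 0.88, 1.01 and 1.21, the last at a probe set with a mean of 3.68, below 4.74. None of the 4 passed, and the groups did not overlap at the probe set with 1.01. Scarb2, the receptor that carries glucocerebrosidase to lysosomes, was likewise measured with opposite signs, at -0.27 and 1.02.

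Among transporters and channels, Cln3, the membrane protein lost in juvenile Batten disease, measured 6.63, 6.25 and 5.28 in reactive arrays, against 5.16, 4.84 and 4.01 in non-reactive arrays. The lowest reactive array was just above the highest non-reactive one, with a difference of 1.38 (SE 0.45, limma adjusted p = 0.266); its other, dim probe set differed by -0.06. Npc1, which exports cholesterol from lysosomes, measured 3.96, 4.55 and 5.28 in reactive arrays, against 6.64, 5.73 and 4.74 in non-reactive arrays. These overlapped, and the difference was -1.10 (SE 0.55, adjusted p = 0.445), or -0.63 without non-reactive replicate 1. Mcoln1, a calcium-permeable channel, was lower in each reactive array (5.91 to 6.34) than in any non-reactive array (6.40 to 7.13), with a difference of -0.60 (adjusted p = 0.4). The difference became 0.24 when probe sets with the suffixes _x_at, _s_at and _a_at were left out. That value came from a probe set with a mean of 4.73, below 4.74. Another Mcoln1 probe set above that level differed by -0.06. Ctns, the cystine exporter, lay below 4.74 on all arrays and differed by -0.33.

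Enzymes and activators of sphingolipid breakdown had a median difference of 0.02 over 8 genes, with 0 called and differences of both signs. Hexa, the alpha subunit of beta-hexosaminidase A, measured 11.95, 11.29 and 13.13 in reactive arrays, against 10.87, 11.01 and 11.13 in non-reactive arrays. The groups did not overlap, but the reactive spread was wide (SD 0.93, against 0.13), and the difference of 1.12 (SE 0.45) did not pass (limma adjusted p = 0.366). Without reactive replicate 3 it was 0.62. Glb1, the beta-galactosidase of gangliosides, measured 6.58, 5.42 and 5.97 in reactive arrays, against 5.14, 4.50 and 4.83 in non-reactive arrays. It too had no overlap, with a difference of 1.17 (SE 0.34, adjusted p = 0.225). Arsa, which removes sulphate from sulphatide, a myelin lipid, measured 6.33, 7.71 and 7.30 in reactive arrays, against 7.86, 8.30 and 7.61 in non-reactive arrays, a difference of -0.81 (SE 0.39). The groups overlapped narrowly, and the value without reactive replicate 1 was -0.42.

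Asah1, acid ceramidase, had 7.75 to 8.23 in reactive arrays, against 8.32 to 8.50 in non-reactive arrays, a difference of -0.40 without overlap (adjusted p = 0.469). Of the activator proteins, Gm2a, the GM2 activator, differed by -0.43. All 3 of its probe sets were lower, but only 1 had a mean above 4.74. Psap, the precursor of the saposins, differed by -0.14 (95% interval -0.73 to 0.46). Gla, alpha-galactosidase A, and Neu1, the lysosomal sialidase, had means below 4.74 and differed by 0.18 and 0.37. Another Neu1 probe set differed by -1.39 without overlap, so the direction of Neu1 depended on the probe set.

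Enzymes of glycosaminoglycan breakdown, 6 genes with a median of 0.65 and 0 called, also differed in both directions. Arsb, the sulphatase of dermatan and chondroitin sulphate, measured 6.07, 6.63 and 6.77 in reactive arrays, against 8.21, 7.18 and 8.62 in non-reactive arrays. Every reactive array was below every non-reactive one, and the difference of -1.52 (SE 0.41, 95% interval -2.50 to -0.54) was the most negative of the 36 genes, without passing (limma adjusted p = 0.188). Its other 2 probe sets had means below 4.74 and differed by 0.38 and -0.26. Naglu, an exoglycosidase of heparan sulphate, measured 5.22, 7.09 and 7.01 in reactive arrays, against 5.30, 5.13 and 4.63 in non-reactive arrays. Replicates 2 and 3 of the reactive group were high and replicate 1 lay within the non-reactive range, with a difference of 1.42 (SE 0.53, adjusted p = 0.327).

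Sgsh, a heparan sulphate sulphamidase, had 6.05 to 7.62 in reactive arrays, against 4.50 to 6.29 in non-reactive arrays, a difference of 1.13 (SE 0.58). Leaving out reactive replicate 3 gave 0.65, leaving out non-reactive replicate 3 gave 0.62, and the other Sgsh probe set differed by 0.40. Gusb, beta-glucuronidase, measured 3.40, 7.32 and 8.25 in reactive arrays, against 5.81, 5.50 and 4.39 in non-reactive arrays. Reactive replicate 1 was the lowest and the other reactive arrays the highest of all 6, so that the difference of 1.09 had an interval of -1.80 to 3.98. Without reactive replicate 1 it was 2.55 and without reactive replicate 3 it was 0.12. Ids, iduronate 2-sulphatase, and Galns, a sulphatase of keratan sulphate, differed by 0.21 and -0.04.

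Man2b1, the lysosomal alpha-mannosidase that trims glycoprotein sugars, had the next largest difference after Cd68. It measured 10.04, 10.13 and 10.77 in reactive arrays, against 8.31, 8.71 and 7.78 in non-reactive arrays. The groups stood clearly apart, with a 4.14-fold difference (log2 2.05, SE 0.33, 95% interval 1.27 to 2.83) and a limma adjusted p of 0.0536, just outside the threshold. Among probe sets with means above 4.74 alone it passed, with an adjusted p of 0.0464 (0.0464 to 0.717 over its alternatives). Its other probe set, however, differed by 0.32 (adjusted p = 0.711), with reactive values of 5.85, 7.03 and 6.10 around non-reactive values of 6.16, 5.73 and 6.13. Manba, the beta-mannosidase, measured 4.65, 3.06 and 7.68 in reactive arrays, against 5.86, 5.10 and 4.94 in non-reactive arrays. Its reactive arrays lay on both sides of the non-reactive ones, and the difference of -0.17 became -1.44 without reactive replicate 3. Fuca1, alpha-fucosidase, differed by 0.40 with all 4 probe sets higher, and Gaa, the acid alpha-glucosidase of glycogen, by -0.52 with both probe sets lower (-0.25 without non-reactive replicate 2).

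The 5 proteins of peptide and lipid breakdown or transport had a median difference of 0.41, with 0 called at the brightest probe sets. Grn, progranulin, a secreted and lysosomal protein whose loss in humans causes neuronal ceroid lipofuscinosis or frontotemporal dementia, measured 12.94, 12.32 and 13.28 in reactive arrays, against 10.99, 11.79 and 11.46 in non-reactive arrays. The groups did not overlap, and the difference at this probe set was 1.43 (SE 0.33, limma adjusted p = 0.128). Another probe set differed by 1.82 (adjusted p = 0.0601), and the third rose by 2.39 (SE 0.25, adjusted p = 0.0234), with 9.73, 9.74 and 10.39 in reactive arrays, against 7.62, 7.65 and 7.43 in non-reactive arrays. All 3 probe sets were free of overlap. The call at the third was kept in 2 of the 6 fits with 1 array left out (adjusted p 0.0415 to 0.0973, past the threshold without reactive replicate 2 or 3) and was lost with replicate number as a block (adjusted p = 0.114). With the mean of its probe sets Grn rose by 1.88 (adjusted p = 0.0339, and 0.0222 to 0.323 over its alternatives).

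Lipa, the acid lipase of cholesteryl esters, measured 7.12, 7.61 and 8.93 in reactive arrays, against 6.32, 7.19 and 5.22 in non-reactive arrays. These overlapped, with a difference of 1.64 (SE 0.63, adjusted p = 0.341) that was 0.10 and 0.37 at its other probe sets. Npc2, which hands cholesterol to Npc1, had 12.12 to 12.60 in reactive arrays, against 11.55 to 12.12 in non-reactive arrays, a difference of 0.41 (interval -0.19 to 1.00). All 4 Npc2 probe sets were higher, by 0.41 to 1.02, and 3 of them had means above 4.74.

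The enzymes lost in the infantile and late infantile forms of neuronal ceroid lipofuscinosis had lower means in reactive arrays at their brightest probe sets. Ppt1, palmitoyl-protein thioesterase, measured 7.27, 7.30 and 7.14 in reactive arrays, against 8.53, 8.16 and 8.04 in non-reactive arrays. The groups were tight and apart, with a difference of -1.003 (SE 0.21, 95% interval -1.51 to -0.50, limma adjusted p = 0.106). Another Ppt1 probe set showed the opposite, with 7.29, 6.34 and 7.91 in reactive arrays, against 6.01, 6.06 and 6.01 in non-reactive arrays. That probe set also had no overlap and differed by 1.15 (adjusted p = 0.293), and the mean of all 5 differed by 0.01, so no direction can be given for Ppt1. Tpp1, a tripeptidyl peptidase, had 8.12 to 8.40 in reactive arrays, against 8.81 to 9.66 in non-reactive arrays, a difference of -0.81 without overlap (adjusted p = 0.299), or -0.54 without non-reactive replicate 1. Its other probe set differed by 0.00, with the groups overlapping.

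**Figure D2:**
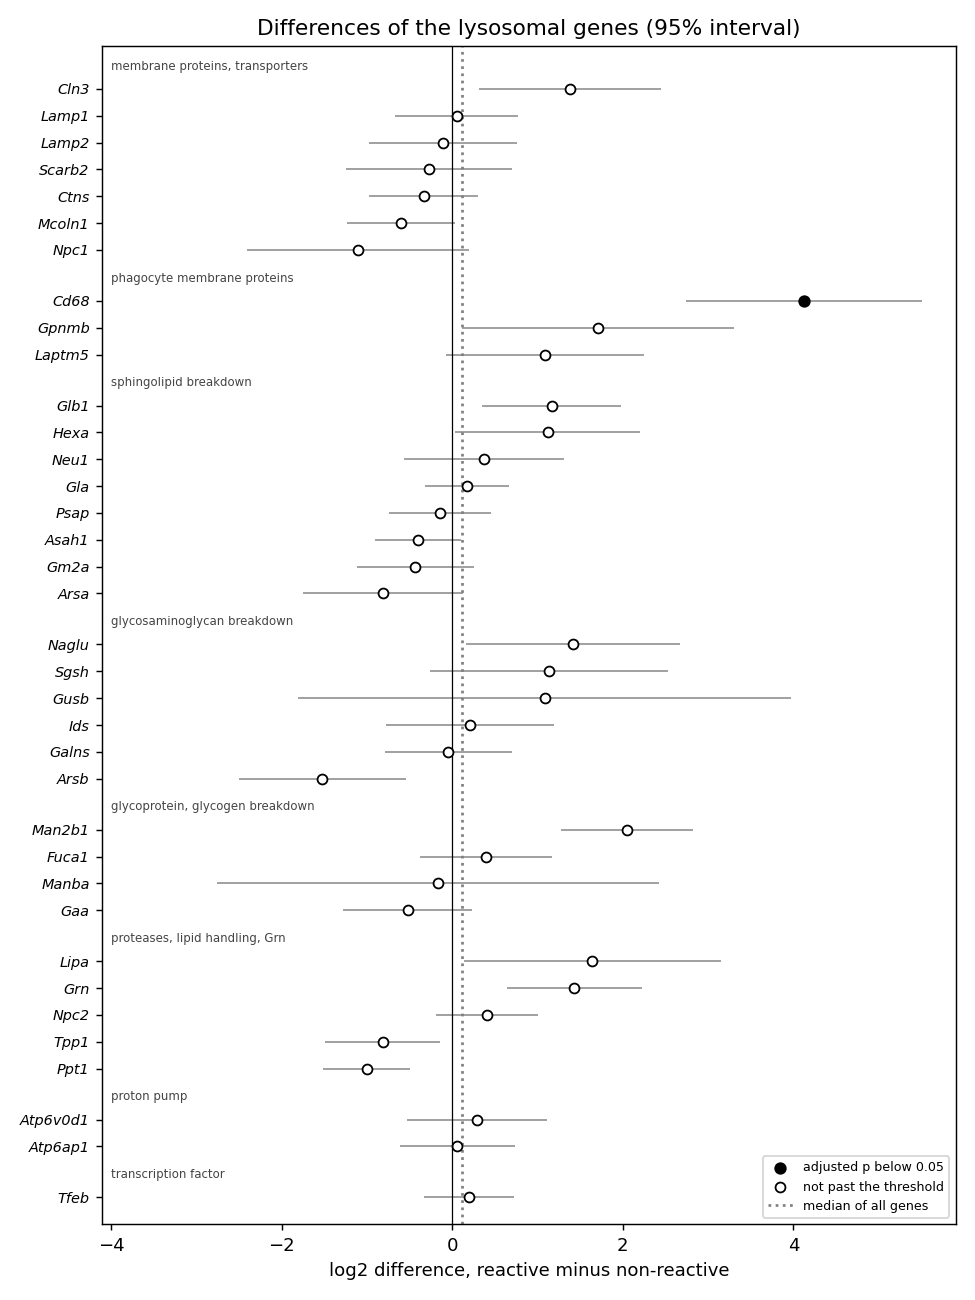
Log2 difference, reactive minus non-reactive, of each of the 36 lysosomal genes (points) with its 95% interval (bars), grouped by role and ordered by size; the filled point passed at a limma adjusted p below 0.05 and the dotted line marks the median of all genes, 0.12. Within most roles the genes spread to both sides of 0.

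For the proton pump subunits and the transcription factor the intervals of the difference held 0. Atp6v0d1, part of the membrane sector of the pump, differed by 0.29 (95% interval -0.53 to 1.11), and Atp6ap1, an accessory subunit, by 0.06 (-0.61 to 0.74). Tfeb, which drives lysosomal genes when it enters the nucleus, measured 7.29, 7.03 and 7.60 in reactive arrays, against 6.99, 7.15 and 7.19 in non-reactive arrays. These overlapped, with a difference of 0.20 (interval -0.33 to 0.73). Transcript level does not report where the TFEB protein was.

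The probe sets of a gene did not always give the same direction. Of 23 lysosomal genes with several probe sets, 10 had all of them higher, 2 all lower and 11 a mixture. Among the 14 genes with at least 2 probe sets whose means lay above 4.74, the counts were 6, 2 and 6. The same counts over all genes are not given here, and 60.7% of all genes had a higher mean in reactive arrays. Of all 82 probe sets 2 rose, those of Cd68 and Grn, and 0 fell, while 0.85% of all 45037 probe sets passed in either direction. The position of each probe set along its transcript was not analysed here.

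**Figure D3:**
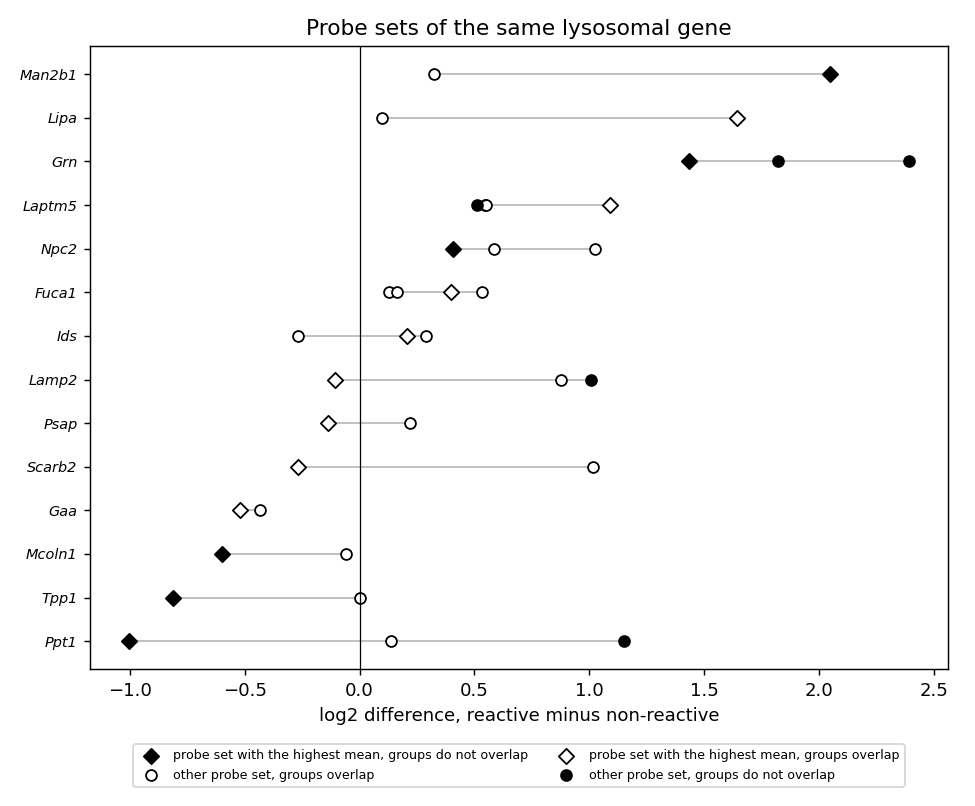
Log2 difference, reactive minus non-reactive, of every probe set with a mean above 4.74 for the 14 lysosomal genes that had several; diamonds mark the probe set with the highest mean and filled symbols those whose groups did not overlap. Grn lies at 1.43, 1.82 and 2.39, while Ppt1 has filled symbols at -1.003 and 1.15.

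The reactive arrays differed among themselves in these genes. Reactive replicate 3 held the highest value of all 6 arrays for 17 of 36 lysosomal genes (47.2%), against 22.6% of all genes, and the highest among the reactive arrays for 23. The median deviation of the 36 genes from their non-reactive mean was 0.16, 0.07 and 0.60 in reactive replicates 1, 2 and 3, against 0.19, 0.00 and -0.15 in non-reactive replicates 1, 2 and 3. Thus only replicate 3 lay outside the non-reactive range. The 22 microglia and macrophage markers had median deviations of 1.58, 1.48 and 2.05 in the same reactive arrays and were likewise highest in replicate 3. Other markers also stood apart in that array. Oligodendrocyte markers had median deviations of 1.10, 1.17 and 1.58 in reactive replicates 1, 2 and 3, and neuronal markers 0.03, 0.42 and -0.74. The summed blood leukocyte markers were 9297, 7693 and 15904 in these arrays, and the endothelial and mural ones 384, 512 and 1586. The part of these markers in the lysosomal values of replicate 3 was not tested. Without reactive replicate 3 the median difference of the lysosomal genes was 0.11, against 0.11 over all genes, and 8 of 36 lay above 1, against 6.39% of all genes. The SD between replicates had a median of 0.53 in reactive arrays, against 0.36 in non-reactive arrays, for the 36 genes. Over all genes these medians were 0.40 and 0.28.

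**Figure D4:**
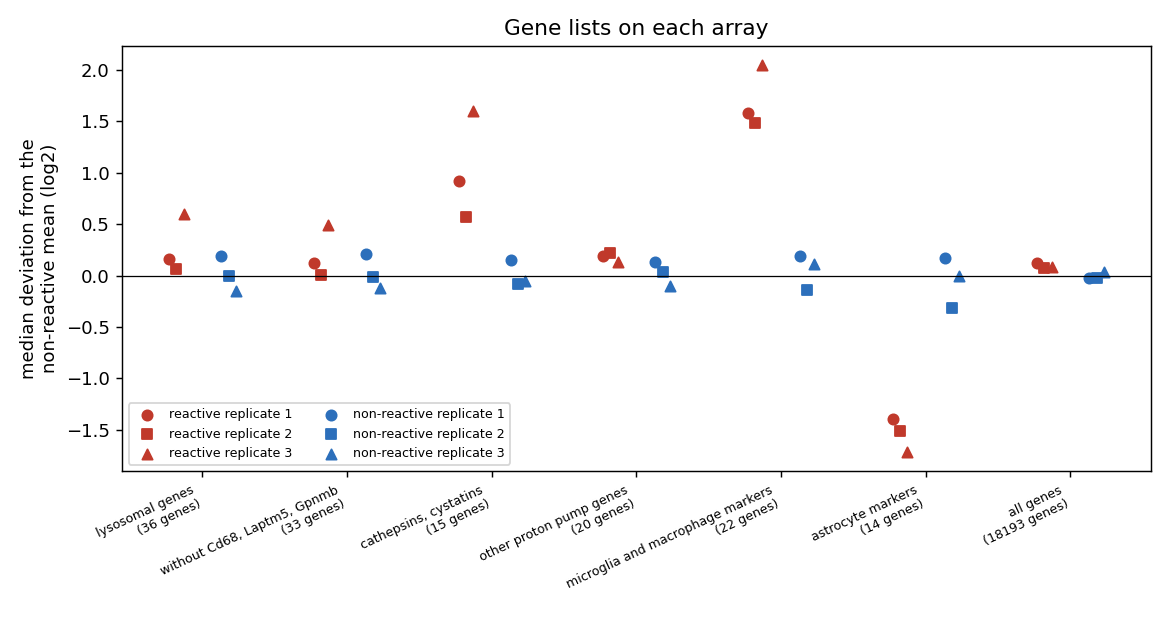
Median deviation of the genes of a list from their non-reactive mean (vertical axis, log2) on each reactive (red) and non-reactive (blue) array. Lysosomal genes reach 0.60 in reactive replicate 3 alone, cathepsins and their inhibitors lie at 0.57 to 1.60, and microglia and macrophage markers at 1.48 to 2.05 in the reactive arrays.

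Other genes of the pathway were read from lists outside the 36. Of 165 measured genes 2 rose (1.21%) and 0 fell, against 0.39% and 0.561% of all genes, and their median difference was 0.17, against 0.12 over all genes. Both risers were lysosomal cysteine proteases: Ctsc rose by 2.36, with 9.73, 8.98 and 9.83 in reactive arrays, against 7.01, 6.76 and 7.68 in non-reactive arrays, and Ctsh rose by 1.97 (limma adjusted p = 0.0461 and 0.043). In the list of cathepsins and their inhibitors 8 of 15 (53.3%) lay above 1, against 5.65% of all genes. The median of that list was 1.01, whereas Cst3, cystatin C, differed by -0.16. That list includes Ctss, which is also a microglial marker. The pathway lists also share some genes, so their counts are not independent of each other.

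None of 29 other lysosomal hydrolases passed in limma, with an unadjusted p below 0.05 for 7 higher and 3 lower and a median of 0.16. Smpd1, acid sphingomyelinase, differed by -0.94 (adjusted p = 0.155) and Ctsa, a carboxypeptidase that protects Neu1 and Glb1, by 1.08 (adjusted p = 0.0837), both without overlap. None of 31 other membrane proteins passed (unadjusted, 5 higher and 2 lower, median 0.14), and Laptm4b differed by -0.42. None of 20 other proton pump subunits and accessory genes passed (unadjusted, 1 higher and 0 lower, median 0.25), with Atp6v1e1 at 0.03 and Atp6v1g1 at -0.06. Of 26 genes for sorting to lysosomes 0 passed (unadjusted, 4 higher and 3 lower, median 0.17), with Vps29 of the retromer at 0.85. Of 23 genes around TFEB and mTORC1 0 passed (unadjusted, 4 higher and 1 lower, median -0.06), and Lamtor1, an anchor of that complex on lysosomes, differed by -0.09. Of 23 autophagy genes 0 passed (unadjusted, 0 higher and 2 lower, median 0.03), with Map1lc3a at 0.03 and Map1lc3b at -0.30.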

How the data were processed

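RNA of sorted cells was amplified in 2 rounds and hybridised to Affymetrix arrays, 3 reactive and 3 non-reactive, each labelled a biological replicate. The deposited log2 values were made with RMA, per the submitters' processing notes; its version is not given in the sources used here. Of 45101 probe sets 64 controls were left out, and 45037 were fitted in limma 3.58.1 (R 4.3.3, lmFit and eBayes, two-sided, no covariates) with Benjamini-Hochberg adjustment over all of them; a gene passed at an adjusted p below 0.05. Probe sets were named from the platform annotation: 34945 had 1 symbol, 932 several and 9160 none. The fit was tested on simulated data. The labels tie the replicate numbers to no shared animal, batch or day, so the numbers were not taken to pair the samples. Same-numbered samples deviated with correlations of -0.07, -0.11 and 0.04. With deviations from the mean of only 3 arrays per group, these values cannot settle whether samples were paired. The genes and lists were chosen with earlier results of these data known. Every listed lysosomal gene measured is named; from the other pathway lists, those past the threshold and up to 2 with the highest mean; of marker lists, up to 3 with the highest mean. Alternatives changed the normalization, filter, probe set rule, variance model, array weights, block and replicates. Only 6 arrays limit the precision.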

Additional observations from a re-analysis of the deposited data

How the results depend on the processing

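Under 16 alternatives, 531 of 567 values of the lysosomal genes kept their direction and side of the threshold. This count is no measure of robustness, because 35 of the 36 genes had not passed to begin with. Cd68, the only gene called, kept its call in 9 of its 16 alternatives, and 25 values of 11 genes changed sign. The number of genes called over all genes, 173, was 125 to 185 under the other normalizations, filters, probe set rules, variance models and array weights. It was 0 with the replicate number as a block (2401 at an unadjusted p below 0.05), and 0 to 77 when 1 array was left out: 20, 74 and 77 without reactive replicates 1, 2 and 3, and 0 whichever non-reactive array was left out (1909 to 2127 unadjusted). For all 3 numbers the correlation with the same number was below the highest with another (0.04, 0.19 and 0.06). With only 3 arrays per group, this comparison cannot settle whether the samples were paired. Of the lysosomal genes, 1 was called in limma's fit of all arrays, 0 with the block and 0 to 1 with 1 array left out. The gene called with 1 array left out was Gpnmb, without reactive replicate 2, and Cd68 lost its call in all these fits. Cd68 and Man2b1, 2 in all, passed among probe sets above the median mean. With probe sets averaged per gene Cd68 and Grn passed, again 2. The same 2 passed without probe sets of the suffixes _x_at, _s_at and _a_at, where Grn differed by 2.39. Another probe set rule turned the sign of Lamp2 (0.75 with the mean and 0.88 without those suffixes), Scarb2 (0.37 with the mean), Mcoln1 (0.24 without the suffixes), Neu1 (-0.31), Psap (0.041), Galns (0.13) and Ppt1 (0.00627), the last 4 with the mean. Lamp1 turned to -0.0405 with quantile normalization and to -0.000289 with cyclic loess. With 1 array left out the differences ranged from -0.22 to 0.21 for Lamp1, -0.46 to 0.0875 for Lamp2, -0.55 to 0.18 for Scarb2, -0.32 to 0.00767 for Psap, -0.26 to 0.28 for Galns, -0.0795 to 0.64 for Ids, -1.44 to 0.87 for Manba and -0.14 to 0.24 for Atp6ap1. The fits with 1 array left out hold fewer samples; the cause of the other changes was not tested. Signal over background was not measured here.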
